A study of Mus musculus with 8 samples.

Results

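The miRNAs mmu-miR-205 and mmu-miR-203 were measured in 3 microdissected regions of the pubertal mouse mammary gland, and were taken by their names on the array, 2 of the 611 mouse miRNAs that it carries. miR-205 was detected on all 5 arrays of epithelium and on none of the 3 arrays of stroma, and under the scaling used here it stood at nearly the same level in both epithelial regions. miR-203 was not detected on any of the 8 arrays, so that these data could not show in which of the 3 regions it is expressed.

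The arrays held RNA of terminal end buds (TEBs, 3 arrays), of mature ducts (2 arrays) and of stroma distal to the epithelium (3 arrays). All tissue came from 5-week-old female FVB/n mice with a GFP reporter under the β-actin promoter, dissected under a fluorescence microscope, and the labels name no other allele or treatment in any group. TEBs are the club-shaped tips that drive the growing ducts through the fat pad in puberty, and mature ducts are the tubes left behind them. The labels do not say whether arrays of 1 tissue came from separate mice, so p-values measure the spread between arrays, which may be technical. Each region is a mixture of cell types, in which fewer cells of a type and less RNA per cell cannot be told apart.

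A miRNA guides a silencing complex to messages that pair with its seed, bases 2 to 8 from the 5′ end. miR-205 is known from basal and progenitor cells of stratified and glandular epithelia and, like the miR-200 family, represses ZEB1 and ZEB2, factors that switch off epithelial genes. miR-203 is best known from the skin, where it represses the basal-cell factor p63 as keratinocytes differentiate.

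The mature sequences of both miRNAs and of the other arm of the miR-203 hairpin were taken from RefSeq, with 2 of 2 members matched, because the array reports them under separate names. miR-200c and miR-200a are printed with them as members of the family whose profile across the arrays was most like that of miR-205 or parted from it. The capitals mark the seed. The array's names carry no arm, and the arms were assigned from standard miRNA nomenclature.
mmu-miR-205-5p: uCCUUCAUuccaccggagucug
mmu-miR-203-3p: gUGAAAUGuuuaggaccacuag
mmu-miR-203-5p: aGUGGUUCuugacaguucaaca
mmu-miR-200c-3p: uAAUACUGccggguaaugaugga
mmu-miR-200a-3p: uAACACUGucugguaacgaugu
None of the other mature mouse sequences in the RefSeq table, 1738 in all, shared its seed with miR-205-5p or with miR-203-3p. The miR-200 family, in contrast, splits into a pair with the seed AACACUG (miR-200a and miR-141) and 3 members with the seed AAUACUG (miR-200b, miR-200c and miR-429).

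In the mouse build GRCm38.p6, mature miR-205-5p lies at chr1:193507503-193507524 on the minus strand, and its hairpin overlaps the long noncoding host gene Mir205hg. Mature miR-203-3p lies at chr12:112130927-112130948 on the plus strand, and the array's miR-203* (miR-203-5p) at chr12:112130889-112130910. A second miRNA gene, Gm51289, overlaps the miR-203 hairpin on the opposite strand.

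Between 23.2% and 27.7% of the mouse miRNAs were detected per array, 203 were detected on at least 1 array and 408 on none. Log2 signals correlated at 0.96 to 0.99 between arrays of the same tissue and at 0.65 to 0.93 between tissues. The miR-200 family, which marks epithelium, was detected in 0 of 5 members on every stroma array, where its summed scaled signal was -56.7 to -25.4, and in 5 of 5 members in ducts (2037 to 2273) and TEBs (1904 to 2014). Of 6 mesenchymal miRNAs, 5 were detected in every tissue, with sums of 4000 to 4182 in stroma, 4873 to 5042 in ducts and 4062 to 5236 in TEBs, so that the epithelial dissections also held these miRNAs. The sums of the adipocyte-linked list were 1858 to 2351 in stroma, 718 to 884 in ducts and 790 to 1008 in TEBs. Those of the endothelial list were 2757 to 3847 in stroma, 1906 to 2051 in ducts and 1312 to 1646 in TEBs. The blood list gave 2622 to 4208 in stroma, 2974 to 3688 in ducts and 1834 to 2371 in TEBs, and the skeletal muscle list 1.21 to 41.3, 27.5 to 170 and 7.46 to 81.1. The part of these other cell types in the results was not tested.

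miR-205 gave total gene signals, the scanner software's background-subtracted intensity summed over the probes of a miRNA, of -8.64, -6.50 and -5.03 units in stroma. The signals were 57.0 and 48.7 units in ducts. In TEBs they were 44.1, 44.6 and 35.1 units. All 5 epithelial values thus lay above all 3 stroma values, and both duct values lay above the 3 TEB values before any scaling between arrays.

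The software's own error on these signals ran from 4.69 units on stroma array 3 to 11.4 units on duct array 1. The epithelial signals were 4.99 to 8.46 times their errors, lowest on duct array 1 and highest on TEB array 1. The detection flag, however, did not follow this ratio strictly, since undetected miRNAs reached 4.09 to 5.07 times their error on each array. miR-205 was therefore a dim but detected miRNA in epithelium.

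**Figure D1:**
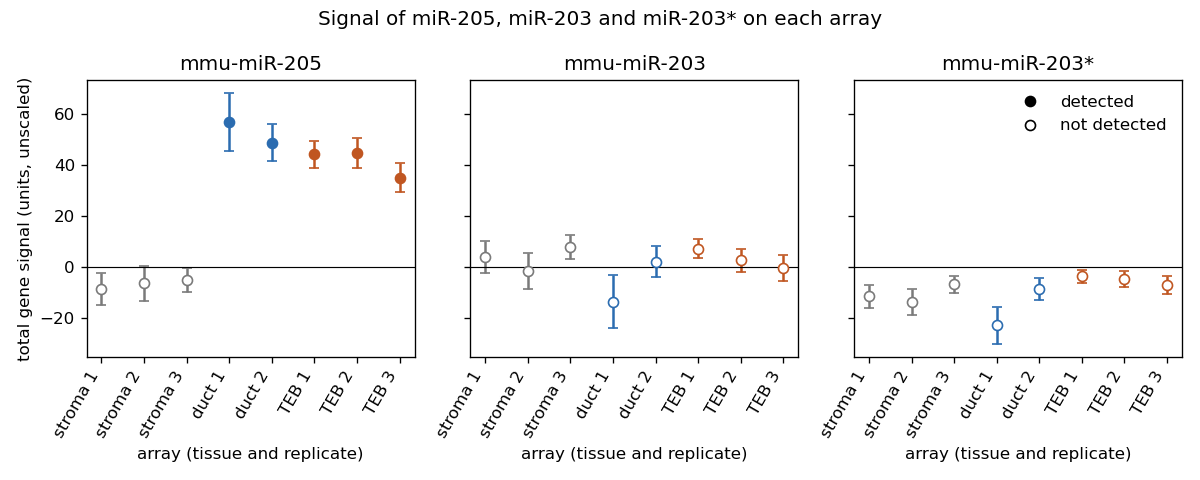
Total gene signal (unscaled units) of miR-205, miR-203 and miR-203* on each of the 8 arrays, with bars for the error that the scanner software gives; filled points were detected and open points were not. The 5 epithelial arrays of miR-205 sit between 35.1 and 57.0 units, above all stroma arrays, while miR-203 lies around 0 in every tissue.

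After each array was scaled to the 75th percentile of its signals over the 108 miRNAs found on all 8 arrays, miR-205 stood at 42.7 and 39.1 units in ducts, a mean of 40.9 ± 2.57 (SD, n = 2). In TEBs it stood at 44.4, 42.2 and 36.7 units, a mean of 41.1 ± 4.02 (SD, n = 3). The duct values fell inside the range of the TEB values. The coefficient of variation between arrays was 6.28% in ducts and 9.77% in TEBs, smaller than the software's mean error of 17.6% and 13.7% of the signal.

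The question of whether miR-205 differs between the growing tip and the mature duct was put to limma, with all 8 arrays in the fit and p-values adjusted by the Benjamini-Hochberg method over the 167 miRNAs that were called present throughout 1 tissue or more. For TEBs over ducts the log2 fold change was 0.00 (SE 0.11, adjusted p = 0.977), with a 95% interval of -0.26 to 0.27, or 0.833-fold to 1.21-fold. The width of this interval depended on how the spread was estimated, since limma's trend and robust estimation gave an SE of 0.31 for the same change. Of the 167 miRNAs, 41 (24.6%) passed the adjusted threshold of 0.05 in this comparison, 19 higher and 22 lower in TEBs. That count rested on single arrays, with 5 called without TEB replicate 2, 7 without duct replicate 1 and 25 without duct replicate 2. Under this scaling, 1 of the other tested miRNAs had a smaller change than miR-205. An exact permutation test of the scaled signal gave p = 1, where 3 arrays against 2 cannot go below 0.1.

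The value between TEBs and ducts depended on how the arrays were brought to 1 scale. It was 0.55 (adjusted p = 0.141) when the percentile was taken over all mouse miRNAs, 0.15 (adjusted p = 0.422) with the median of the 108 miRNAs and -0.36 (adjusted p = 0.108) without scaling. With quantile normalization it was 0.46 (95% interval 0.24 to 0.68), and this passed the threshold (limma, adjusted p = 0.0223). The median change of all tested miRNAs moved from -0.10 to 0.45, 0.04, -0.47 and 0.02 under the same settings. Relative to that median, miR-205 was higher in TEBs by 0.11 under the 75th percentile scalings, the median scaling and no scaling, and by 0.44 after quantile normalization. Apart from quantile normalization, these settings differ only by a common factor per array. The shared 0.11 therefore follows from the arithmetic and is not a repeated finding. In the log2 values that the authors deposited, the change was 0.41 (95% interval -0.53 to 1.34, limma adjusted p = 0.44). That was 0.39 above the median change of all tested miRNAs. There the TEB values of miR-205 (5.89, 5.91 and 5.67) all lay above the duct values (5.41 on each array).

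**Figure D2:**
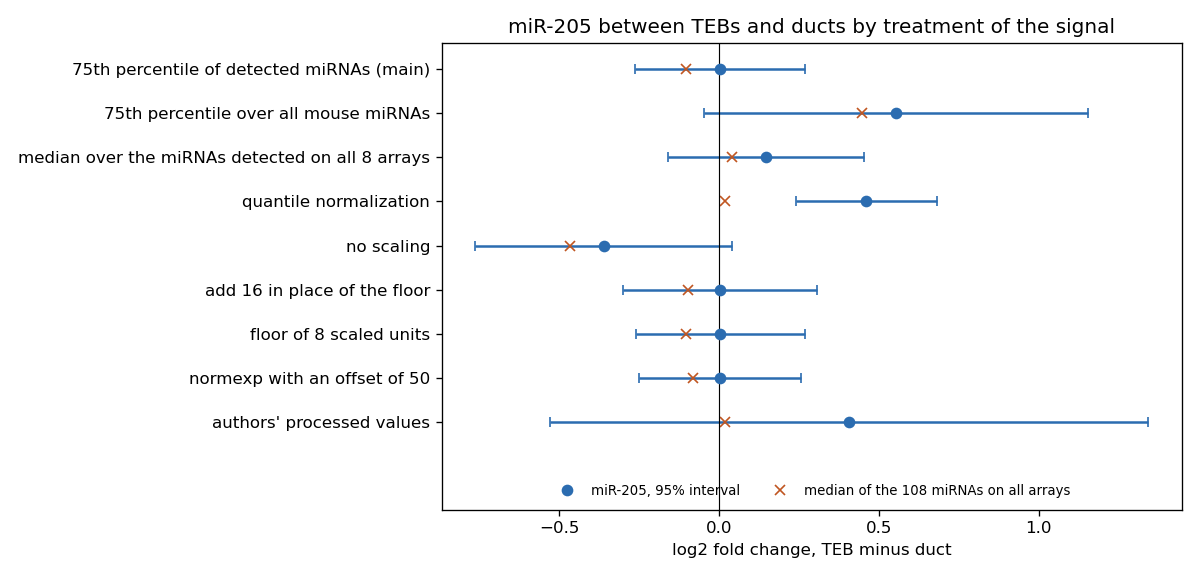
Log2 fold change of miR-205 in TEBs over ducts under 9 treatments of the signal (points, with 95% intervals from limma) and the median change of the 108 miRNAs detected on all arrays (crosses). The interval leaves out 0 with quantile normalization (0.24 to 0.68) and includes it under the other treatments plotted.

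The median scaling can also be read array by array, with miR-205 set against the median of the 108 miRNAs on its own array. It restates the result of that scaling and is no separate check. The log2 difference of miR-205 from that median was -1.84 and -1.85 on the duct arrays. It was -1.54, -1.65 and -1.90 on the TEB arrays, which fell on both sides of the ducts. The means differed by 0.15 (exact two-sided permutation p = 0.4), with an SD of 0.19 between the TEB arrays.

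The labels give no slide position, and a digit in the scan names was read as 1 of 2 rows of the slide. Within row 1 of the slide (1 duct array and 2 TEB arrays) the change was 0.02, and within row 2 (1 array of each) it was -0.09, and neither of these values has a test.

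In stroma, miR-205 was not detected and its fold had to be taken against a reference. Set against the lowest signal of any miRNA detected on each stroma array, miR-205 was 5.50-fold higher in TEBs and 5.48-fold higher in ducts. Without stroma replicate 3, these folds were 3.59 and 3.58. They are no strict lower bounds, since a miRNA marked as not detected could exceed that reference, as miR-203 did on stroma array 3. The measured scaled means were -7.82 ± 0.988 (SD, n = 3) in stroma against the 41.1 and 40.9 given above.

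limma, with scaled signals under 1 set to 1, gave log2 fold changes of 5.36 (SE 0.10, adjusted p = 2.6e-08) for TEBs over stroma and 5.35 (SE 0.11, adjusted p = 5.4e-08) for ducts over stroma. Among all tested miRNAs, 34 (20.4%) were higher in TEBs than in stroma and 16 (9.58%) were higher in ducts. With each array left out in turn, miR-205 passed the threshold in 8 of 8 fits of both comparisons. These fold changes rest on the floor, since all stroma values of miR-205 lay below it. The floored stroma values had a log2 SD of 0, so the limma p-values do not measure the spread between stroma arrays. miR-205 was among the tested miRNAs only because it was detected in epithelium. With a floor of 8 units the fold changes were 2.36 and 2.35, and with normexp background correction 0.41 and 0.40. Both comparisons still passed with normexp (limma adjusted p = 0.0049 and limma adjusted p = 0.018). An exact two-sided permutation test of the 5 epithelial against the 3 stroma arrays gave p = 0.0179, the smallest that this design allows. For TEBs or ducts alone against stroma the exact test gave p = 0.1, again the smallest possible.

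The pattern of detection on all 5 epithelial arrays and no stroma array was shared by 9 of the 611 mouse miRNAs (1.47%). These were miR-205, the 5 members of the miR-200 family, miR-183 and miR-96 of a cluster best known from sensory organs, and miR-18a of a cluster tied to proliferation. miR-182, listed in the cluster of miR-183 and miR-96 and present on the array, was not detected in any tissue.

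By Pearson's correlation of log2 scaled signal over the 8 arrays, the 5 miRNAs most like miR-205 among the 166 others tested were miR-200c (0.9996), miR-200b (0.9994), miR-141 (0.9990), miR-96 (0.996) and miR-183 (0.993). The arrays fall into an epithelial and a stromal cluster and stroma values stand at the floor, so that these coefficients describe the difference between the clusters. miR-200a and miR-429 came in places 7 and 8 (0.983 and 0.981).

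Between TEBs and ducts, however, these miRNAs parted. miR-200a fell, from a scaled signal of 228 ± 25.3 in ducts to 76.7 ± 8.66 in TEBs, a log2 fold change of -1.57 (SE 0.13, adjusted p = 0.00037). miR-183 rose to 49.9 ± 6.13 in TEBs (0.68, SE 0.13, adjusted p = 0.0148). miR-96 rose from 48.0 ± 3.29 to 67.6 ± 9.79 (0.48, SE 0.14, adjusted p = 0.0466). miR-18a rose most of these, from 13.2 ± 4.62 to 77.7 ± 12.5 (2.59, SE 0.43, adjusted p = 0.0134). The threshold was not passed by miR-429 (-0.36), miR-200b (-0.14), miR-200c (0.12) or miR-141 (0.19). The adjusted p-values are limma's, the SDs are over 2 duct and 3 TEB arrays, and no scaling turned the sign of miR-200a, miR-183 or miR-96, although miR-183 and miR-96 no longer passed without scaling. With each array left out in turn, miR-200a passed in 8 of 8 fits. miR-183 and miR-18a passed in 6 of 8 fits, not without duct replicate 1 or TEB replicate 2 (adjusted p up to 0.0998 and 0.0884), and miR-96 passed in 1 of 8, without TEB replicate 1.

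**Figure D3:**
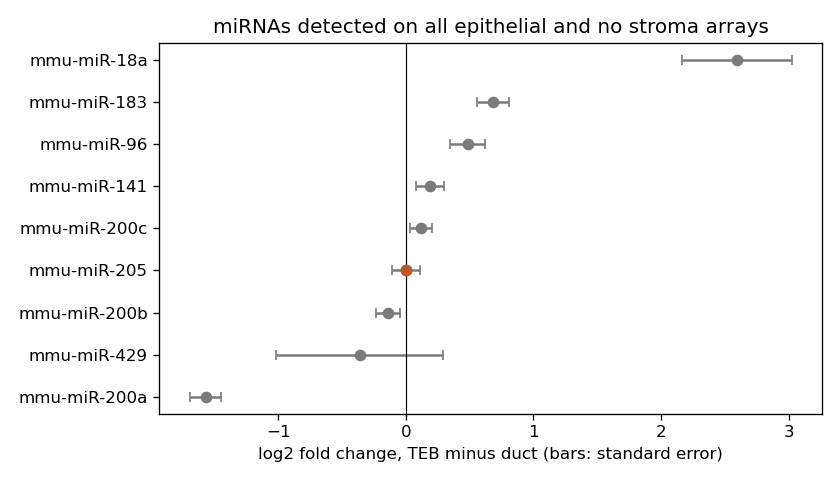
Log2 fold change in TEBs over ducts of the 9 miRNAs detected on all epithelial and no stroma arrays, with bars for the standard error from limma; miR-205 is the coloured point. miR-205 lies at 0.00, between miR-18a at 2.59 and miR-200a at -1.57.

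Whether miR-205 changed unequally to these miRNAs was compared within each array, where scaling cancels. The log2 ratio of miR-205 to miR-200a was -2.52 and -2.42 on the duct arrays and -0.96, -0.74 and -0.99 on the TEB arrays. The ratio was thus higher in TEBs by 1.57, with no overlap (exact permutation p = 0.1, the smallest possible). The ratio of miR-205 to miR-18a was 2.11 and 1.25 on the duct arrays and -0.53, -1.07 and -1.13 on the TEB arrays. The difference, TEBs minus ducts, was -2.59, again with no overlap (exact permutation p = 0.1). Against miR-183 and miR-96 the differences were -0.68 and -0.48, without overlap (exact permutation p = 0.2 for each). The difference was 0.37 against miR-429, without overlap (exact permutation p = 0.3), and -0.12 against miR-200c, where the tissues lay close but also did not overlap (exact permutation p = 0.4). Against miR-200b and miR-141 it was 0.14 and -0.19, with overlap (exact permutation p = 0.4 for each). In all, 8 ratios were compared, and none could pass 0.05 in this design. They share the same miR-205 values and are not independent. How often ratios among the other miRNAs separate these tissues was not counted, so the lack of overlap is only a description.

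miR-203 gave signals of 4.04, -1.59 and 7.80 units in stroma. In ducts the signals were -13.6 and 2.07 units, and in TEBs they were 7.22, 2.67 and -0.517 units. The signals lay on both sides of 0 in each of the 3 tissues and the tissues overlapped.

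No miR-203 signal reached 2 times its software error, and the ratios ran from -1.32 on duct array 1 to 1.96 on TEB array 1. miR-203 shared its lack of detection with 66.8% of the mouse miRNAs on the array. On 3 arrays (stroma 3, TEB 1 and TEB 2) its signal exceeded the lowest signal that the software called detected there, 2.33, 2.04 and 0.260 units, and it was still marked as not detected.

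The scaled means of miR-203 were 4.27 ± 6.26 in stroma (n = 3), -4.28 ± 8.40 in ducts (n = 2) and 3.09 ± 3.94 in TEBs (n = 3). Each SD was larger than the size of its mean. Exact two-sided permutation tests of the scaled signal gave p = 0.3 for TEBs against ducts, p = 0.8 for TEBs against stroma, p = 0.4 for ducts against stroma and p = 0.429 for the 5 epithelial arrays against stroma. In all, 8 such tests were run over both miRNAs. No fold is given for miR-203, since every tissue was below detection, and a difference between tissues was not detectable at this signal rather than shown to be absent.

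The other arm of the hairpin, miR-203*, gave negative signals on all 8 arrays, from -23.0 to -3.63 units, and was not detected either. Thus neither arm of the miR-203 hairpin gave a signal that the software called detected.

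Other miRNAs that are linked to skin were read beside the members. Of 5 such miRNAs (miR-31, miR-184, miR-125b-5p, miR-24 and miR-34a), 1 was called higher and 1 lower in TEBs than in ducts. Among all tested miRNAs, 24.6% were called in either direction. The median change of the 5 was -0.10, which equals the median of all tested miRNAs to 2 decimals. miR-31, which acts in keratinocyte growth, was detected on the 3 TEB arrays and on no other (scaled mean 15.0 ± 3.32 in TEBs, limma adjusted p = 4.8e-05 against ducts). Its duct and stroma values were all set to the floor (scaled means -5.67 and -21.1). The p-value of miR-31 therefore does not measure the spread between arrays of these tissues. miR-184, known from the cornea and epidermis, was detected in ducts alone, on both arrays (50.6 ± 0.453 in ducts, limma adjusted p = 0.024), a call lost without either duct array, without TEB replicate 2 or with quantile normalization (adjusted p = 0.0521). Each of the pair was tested only because of the tissue in which it was detected.

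Of 10 miRNAs linked to progenitors of a mouse mammary epithelial line (miR-22, miR-93 and 8 let-7 miRNAs), 1 rose and none fell in TEBs against ducts by the limma test, beside 24.6% of all tested miRNAs called in either direction, with a median of -0.08. The list was fixed with no direction given for its members. Its counts and medians therefore do not show a gain or a loss of progenitor cells. The one that rose was miR-93 (0.69, limma adjusted p = 0.0148), which no longer passed without scaling, without duct replicate 2 or without TEB replicate 2. Against stroma, miR-93 rose and 5 of the 10 (miR-22, let-7a, let-7d, let-7f and let-7g) were called lower in TEBs, where 44.3% of all tested miRNAs were called lower. The median of the 10 was -0.22 beside -0.28 for all tested miRNAs. Under the 4 other scalings, the call of miR-22 held in 2 and that of let-7g in 1, while let-7a, let-7d and let-7f passed in 0. The signs of let-7d and let-7f turned in 3 of the 4. let-7a stood at 0 with quantile normalization, turned positive with the percentile over all mouse miRNAs and with the median, and stayed negative without scaling. With an array left out, the calls of let-7a and let-7d held in 2 and 5 of 8 fits. In ducts against stroma, none rose and 3 of the 10 (miR-22, let-7f and let-7g) were called lower, where 12% of all tested miRNAs were, with a median of -0.15 beside -0.09. The call of miR-22 held under 3 of the 4 other scalings, and let-7f and let-7g passed in 0. The sign turned in 2 of the 4 for let-7f and in 1 for let-7g. Among the fits that kept both duct arrays, the let-7f call was lost without stroma replicate 1 or 2 or any of the TEB arrays. That of let-7g was lost without stroma replicate 1 or 2 or TEB replicate 3. Fits without a duct array leave only 1 and are not counted here, so neither call is shown to hold without a duct array.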

How the data were processed

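miRNA expression was measured on single-colour Agilent mouse miRNA arrays (3 TEB, 2 duct and 3 stroma samples, grouped by the labels). The authors deposited the total gene signal intensity of each miRNA with its error and a detection flag, from Agilent Feature Extraction 9.5.3 per the labels. These intensities are background-subtracted, summed over probes and not normalized between arrays. The authors also deposited a value table on a log2 scale with no stated normalization. Its columns correlated with the log2 intensities at 0.996 to 0.999, had medians of 1.65, 1.57 and 1.65 (stroma), 0.169 and 1.69 (ducts) and 1.65, 1.64 and 1.64 (TEBs), and its centring is unknown. It was used as an alternative.

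Viral and control rows (61 in all) were left out and 611 mouse miRNAs kept. Since 66.8% of these were detected on no array, the 75th percentile used to scale an array was taken over the 108 miRNAs found on all of them (factors 0.75 to 1.36). Scaled signals were set to a floor of 1 and log2 transformed. miRNAs called present throughout 1 tissue or more, 167 in all, were tested with limma 3.58.1 (R 4.3.3), with Benjamini-Hochberg adjustment within each of 3 comparisons at 0.05. miR-203 did not pass this filter, so its planned limma test could be run only without the filter, where its adjusted p was 1 in all comparisons. Exact permutation tests (SciPy 1.17.1) took the size of the difference in means. The limma fit was checked on simulated data for TEBs against stroma only, with no tissue held at the floor. That check does not cover the comparisons with ducts or the values at the floor. The arrays give no counts, and their number limits the precision.

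Named were both members, the other arm of their hairpins where the array has it, fixed lists, and the 5 miRNAs with the highest correlation to a member. Those with the detection pattern of miR-205 were added after their values were seen. The members and lists were chosen with earlier results of these data known. Alternatives covered scaling, floor, background correction, the detection filter, slide row, the replicate block, the t-test named in the methods and each array left out. Replicate numbers in the labels were not taken to pair the samples.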

Additional observations from a re-analysis of the deposited data

How the results depend on the processing

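Of 25 alternatives, the log2 fold change of miR-205 in TEBs over ducts kept its direction and its side of the threshold in 18, with a range of -0.36 to 0.55. It passed with quantile normalization (0.46) and turned negative without scaling (-0.36), with slide row as a covariate (-0.0167) and within slide row 2 (-0.0932). It ranged from -0.0603 to 0.0842 when each array was left out in turn. Against stroma, miR-205 passed under every alternative tested that gave a p, with 5.20 within slide row 2 for TEBs, and it could not be tested among the miRNAs detected on all 8 arrays. Its fold over the lowest detected signal of the stroma arrays, whose alternatives were chosen after seeing the data, was 3.59 to 9.61 for TEBs and 3.58 to 8.38 for ducts.

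The number of miRNAs called between TEBs and ducts, 41, was 75 without scaling, 27 with normexp, 18 with no detection filter (where many variances were 0), 12 with the methods' t-test (53 before adjustment) and 5 to 45 with each array left out, lowest without TEB replicate 2 (5) and duct replicate 1 (7), and 25 without duct replicate 2. TEBs over stroma gave 66 in place of 108 with the percentile over all mouse miRNAs. Ducts over stroma gave 19 in place of 36 with that percentile, 56 without scaling, 69 with normexp and 22 to 40 with each array left out, lowest without duct replicate 1. Leaving out a duct array leaves 1, whose spread is taken to be that of the other tissues.

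With the replicate block, 16 miRNAs were called between TEBs and ducts, and miR-205 stood at 0.04 (limma adjusted p = 0.79). Deviations of same-numbered arrays correlated at -0.51 to 0.36 over 7 pairs (mean -0.10), so the numbers were not read as pairing.

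The change of the log2 ratio of miR-205 to miR-203 between TEBs and ducts (-1.03, exact permutation p = 0.4) became 0.00374 with a floor of 8 units and 0.64 within slide row 2, and has no meaning where miR-203 was not detected. The dim signal of both miRNAs limits all of these values.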
